A study of Homo sapiens with 12 samples.

Results

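ID2 knockout clone 1 of the human Ewing sarcoma cell line TC71 was compared with wild-type TC71 over all genes of the count table. The comparison took 3 libraries of the knockout clone and 3 wild-type libraries out of 12, by their titles, and 17084 of the 21569 genes in the table had enough reads to be tested. Both groups grew in DMEM with 10% FBS, and neither carried the ID2 rescue of the remaining group. The other libraries were 3 of a second knockout clone and 3 of a rescue line made from it. Clone 1 is 1 clone, so what is particular to that clone and what follows from the ID2 lesion cannot be told apart in this comparison alone. The labels name no method for the knockout and no parental clone, and they leave unsaid whether a group's 3 libraries were grown separately. The p-values therefore reflect library-to-library spread only, which could be technical.

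ID2 is a helix-loop-helix protein that lacks the basic region through which related factors touch DNA. It pairs with the E proteins TCF3, TCF4 and TCF12, which alone or with tissue-specific partners would otherwise bind the E-box, a short motif written CANNTG. ID proteins are known for holding progenitor cells back from differentiation and for promoting the cell cycle. Ewing sarcoma is driven by the EWSR1-FLI1 fusion, a transcription factor that activates some genes, ID2 among them, and represses others, many of them mesenchymal.

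ID2 (ENSG00000115738, hg38 chromosome 2, 8678845 to 8684453) stood at 77.6, 78.6 and 77.4 CPM in the wild-type libraries and at 17.9, 17.4 and 18.9 CPM in clone 1. CPM are TMM-scaled counts divided by library size, and values in threes follow the replicate numbers of the titles. No clone 1 library came near a wild-type one, and the mean was 4.31-fold lower, with 1306 reads left in clone 1. Counts do not show whether that RNA still codes for the protein. ID2-AS1, which overlaps ID2 on the other strand, read 2.6, 2.89 and 2.62 CPM in wild-type and 2.6, 3.2 and 2.68 in clone 1, and was not called. Second-clone libraries held a mean of 50.9 CPM of ID2.

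Totals ran from 19952990 to 29748084 counts in the 6 libraries, and no library stood apart from its group. All 9 Ewing sarcoma markers were detected, and their summed level was 1448 to 1521 CPM in wild-type and 1360 to 1417 in clone 1, with 5 higher and 4 lower. Summed levels of markers of other cell types were higher: epithelium, 6 of 12 markers in the table, from 115 to 122 CPM up to 885 to 952, and fibroblasts, 6 of 7, from 149 to 156 up to 242 to 271. All 6 epithelial markers were higher, and most of their sum was KRT8 (7.59 to 504 CPM) and KRT18 (108 to 378). Of the fibroblast markers 4 were higher and 2 lower. PDGFRB (96.4 to 160 CPM) and THY1 (28.5 to 70.0) made up most of the sum, while PDGFRA (8.84 to 0.0874) and LUM (3.77 to 2.46) fell. Leukocyte markers, 6 of 11, went from 13.6 to 15.5 up to 56.8 to 58.7 CPM, and endothelial markers, 3 of 8, from 2.09 to 2.98 up to 10.2 to 11.4. Of the leukocyte markers HCLS1, CORO1A and CD14 were higher and CD79A was not called, while the pan-leukocyte gene PTPRC, untested, was at 0.0839, 0.0948 and 0.0345 CPM in wild-type and 0.15, 0.142 and 0.0412 in clone 1. Of the endothelial markers EMCN rose from 0.835 to 8.35 ± 0.73 CPM and CLDN5 from 1.51 to 2.17 ± 0.194, while the cadherin CDH5, untested, was at 0.08 and 0.176 CPM. In bulk RNA, more cells of a type and more RNA per cell cannot be told apart.

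Changes were many and mostly small. At a Benjamini-Hochberg adjusted p under 0.05 (edgeR quasi-likelihood test), 5265 genes (30.8%) were higher in clone 1 and 5248 (30.7%) lower, 61.5% in all. The median change of a called gene was 1.5-fold upward and 1.26-fold downward, and 6582 called genes (62.6%) changed by under 1.5-fold. At 2-fold or more the counts parted: 1641 genes (9.61%) were higher and 693 (4.06%) lower. Changes of 10-fold or more numbered 262 upward, 235 of them in genes under 1 CPM in wild-type, and 130 downward, 126 of them in genes that ended under 1 CPM in clone 1. The clone 1 and wild-type libraries did not overlap in 65.2% of all tested genes.

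**Figure D1:**
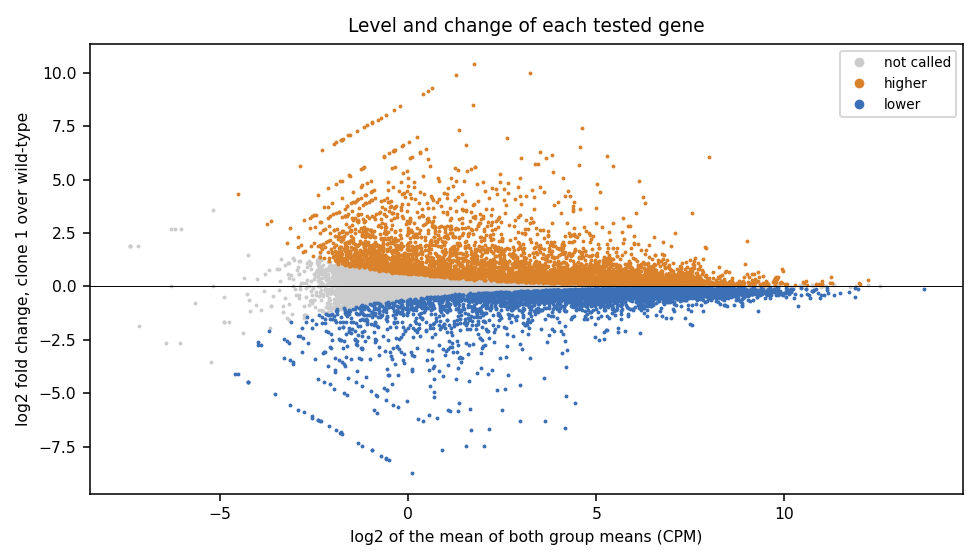
Each point is a tested gene: horizontally the log2 of the mean of both group means in CPM, vertically the log2 fold change of clone 1 over wild-type, coloured by call at adjusted p under 0.05; genes with no read in both groups are not drawn. Most of the large changes lie among genes of low mean level, with exceptions such as KRT8, and genes at the right edge lie close to 0.

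Some genes were read in only 1 of the groups. No wild-type library held a read of 15 protein coding genes that each clone 1 library held at 0.5 CPM or more, and 10 genes showed the reverse. These genes were picked for that pattern, so their values are a description without a test. ANXA3, a calcium-dependent membrane-binding annexin, had 0 reads in wild-type and 6.65, 7.08 and 6.63 CPM in clone 1, which makes it at least 167-fold higher against a floor of 3 reads over the wild-type group. CAVIN3, a coat protein of caveolae, stood at 6, 4.12 and 4.28 CPM, at least 118-fold higher. ENTPD2, which hydrolyses extracellular ATP, read 2.95, 2.74 and 2.96 CPM, at least 71.1-fold higher. The clone 1 libraries lay close together for ANXA3 and ENTPD2, and less so for CAVIN3.

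Other genes that appeared are known from various tissues. TRIML2, a tripartite motif family gene, reached 2.62 CPM and DPPA4, a chromatin protein of pluripotent cells, 1.55 CPM. MUC15, a membrane mucin, stood at 1.71 CPM, and KRT20, an intestinal keratin, at 1.35, 0.818 and 1.28. HBE1, the embryonic epsilon globin, read 1.3, 1.21 and 1.48 CPM, and CACNG7, an AMPA receptor auxiliary subunit, 1.1, 0.996 and 1.52. The interferon-induced OAS2 had 0.95, 0.96 and 0.905 CPM, the T cell checkpoint receptor CTLA4 0.95, 0.853 and 0.864, and the lymphocyte surface antigen CD52 0.7, 0.818 and 0.823. UBXN10 and the cancer-testis gene MAGEB17 stood at 1.02 and 1.03 CPM. MUC15, HBE1 and OAS2 also had no read in the second clone, where ANXA3 was at 0.0492 CPM and CAVIN3 at 0.449.

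In the reverse direction clone 1 held no read of several developmental genes. SALL1, a zinc finger repressor of kidney and limb development, read 1.64, 2.37 and 2.48 CPM in wild-type and 0 in clone 1, at least 52.2-fold lower. UNCX, a homeobox gene of the paraxial mesoderm, went from 1.51, 1.23 and 1.24 CPM to 0, and ROR2, a receptor tyrosine kinase for WNT5A, from 0.965, 1.18 and 0.931 to 0. CXCL12, the chemokine ligand of CXCR4, went from 1.17, 0.995 and 0.931 CPM to 0. ARHGAP28, a GTPase-activating protein, the zinc finger genes ZNF829 and ZNF256, the orphan receptor GPR27 and FAM81A also had no read in clone 1, at means of 0.528 to 1.4 CPM in wild-type. ARHGAP28 and ZNF256 were also without a read in the second clone. SALL1, ROR2 and ZNF829 were lower there than in wild-type too, at 0.0931, 0.242 and 0.330 CPM. UNCX, CXCL12, GPR27 and FAM81A were read there at 1.87, 1.96, 8.76 and 1.45 CPM.

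**Figure D2:**
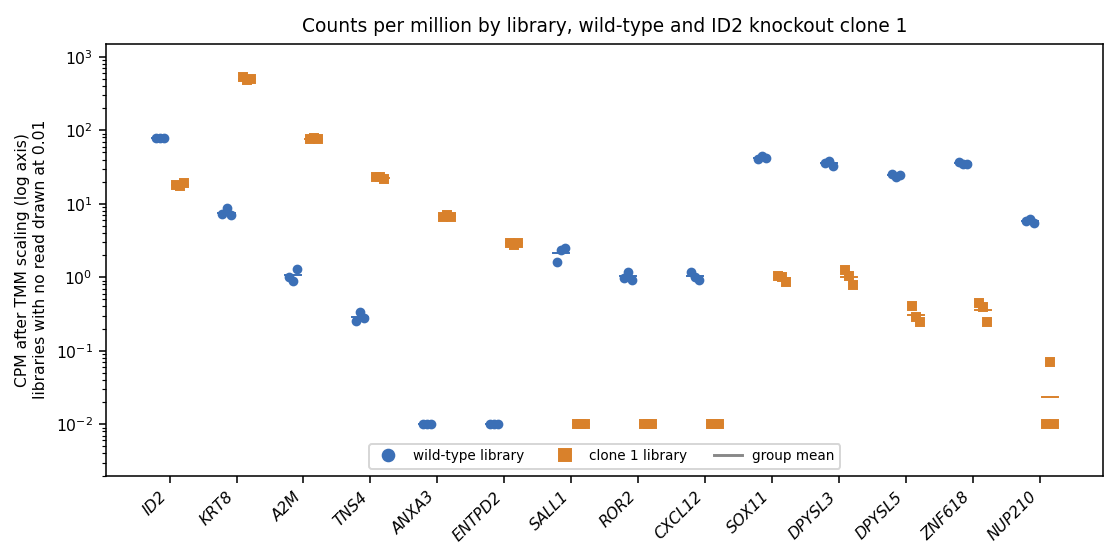
CPM of 14 genes on a log axis, circles for the 3 wild-type and squares for the 3 clone 1 libraries, short lines for the group means; libraries with no read are drawn at 0.01. ID2 is at 77.4 to 78.6 CPM against 17.4 to 18.9, with no overlap of the groups. ANXA3 and ENTPD2 appear only in clone 1, SALL1, ROR2 and CXCL12 only in wild-type. In the genes other than ID2 the groups do not overlap either, which was a condition of their choice.

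Promoters were available for 8 genes that appeared and 7 that were lost, and 5 of these were taken as examples by no stated rule. The 250 bases before the start are given for 3 genes that appeared and 2 that were lost, since ID2 acts on factors that bind the E-box. They are RefSeq sequences of GRCh38.p14, written 5′ to 3′ along the gene and placed by the RefSeq start, and capitals mark every E-box, CANNTG. ANXA3 lies at chr4:78551520-78551769 and CTLA4 at chr2:203867521-203867770, both on the plus strand, TRIML2 at chr4:188109604-188109853, ROR2 at chr9:91950229-91950478 and CXCL12 at chr10:44385098-44385347, these last 3 on the minus strand. The windows of ANXA3 and CXCL12 fall inside the gene spans given for the table's identifiers, so another start lies further upstream there.
ANXA3: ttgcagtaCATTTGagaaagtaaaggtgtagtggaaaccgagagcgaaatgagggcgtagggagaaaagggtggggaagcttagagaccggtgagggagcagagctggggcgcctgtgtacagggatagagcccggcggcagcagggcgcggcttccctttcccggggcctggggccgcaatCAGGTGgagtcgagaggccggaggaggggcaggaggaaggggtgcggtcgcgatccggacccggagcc
TRIML2: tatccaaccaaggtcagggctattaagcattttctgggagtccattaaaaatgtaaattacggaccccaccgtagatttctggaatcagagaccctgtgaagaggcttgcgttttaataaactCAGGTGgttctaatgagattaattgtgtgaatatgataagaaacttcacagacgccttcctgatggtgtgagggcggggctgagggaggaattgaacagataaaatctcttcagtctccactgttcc
CTLA4: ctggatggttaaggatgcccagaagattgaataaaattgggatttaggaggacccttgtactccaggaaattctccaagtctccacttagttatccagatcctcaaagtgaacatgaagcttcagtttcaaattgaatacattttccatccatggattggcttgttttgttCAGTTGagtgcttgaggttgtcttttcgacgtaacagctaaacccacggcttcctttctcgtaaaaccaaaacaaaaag
ROR2: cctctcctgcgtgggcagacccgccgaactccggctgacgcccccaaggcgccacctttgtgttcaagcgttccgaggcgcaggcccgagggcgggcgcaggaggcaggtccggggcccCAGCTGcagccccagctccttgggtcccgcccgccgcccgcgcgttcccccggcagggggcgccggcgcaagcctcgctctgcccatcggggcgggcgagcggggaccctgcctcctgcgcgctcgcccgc
CXCL12: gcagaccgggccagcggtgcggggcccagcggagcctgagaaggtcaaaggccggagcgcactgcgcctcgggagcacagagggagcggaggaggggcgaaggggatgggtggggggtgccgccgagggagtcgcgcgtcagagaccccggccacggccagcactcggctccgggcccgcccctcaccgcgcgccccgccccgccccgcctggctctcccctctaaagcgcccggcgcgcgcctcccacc
Of the genes read only in clone 1, ANXA3 and TRIML2 each held the E-box CAGGTG, ANXA3 held CATTTG as well, and CTLA4 held CAGTTG alone. ROR2 held CAGCTG and CXCL12 held no E-box in these windows. GC content was 64% in ANXA3, 43.2% in TRIML2, 40.4% in CTLA4 and 78% in both ROR2 and CXCL12, and CpG pairs numbered 18, 5, 4, 32 and 31.

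Over whole sets the same letters were counted in windows from 250 bases before to 50 after the start, for tested protein coding genes with a promoter in the RefSeq table. CAGGTG or its complement CACCTG was in 18.0% of all 10804 promoters, in 30.3% of the 400 of genes at least 4-fold higher in clone 1, and in 14.1% of the 198 of genes at least 4-fold lower. Of the genes read in 1 group only, few had a promoter in the table: CAGGTG or CACCTG was in 50% of 8 that appeared and in 14.3% of 7 that were lost. CAGCTG, which reads the same on both strands, was in 16.8% of all promoters, 17.8% of those of genes at least 4-fold higher and 19.2% of those at least 4-fold lower, and any CANNTG, which includes both, in 60.1%, 70.3% and 57.6%. Genes under 1 CPM in wild-type, from which most large rises came, held CAGGTG or CACCTG in 23.8% of promoters, and those of them not called higher in 20.6%. CpG-rich promoters, with an observed over expected CpG ratio of 0.6 or more, made up 81.4% of all, 51.6% of genes under 1 CPM in wild-type, 44.3% of genes at least 4-fold higher and 77.3% of genes at least 4-fold lower. These shares are descriptions of letters and of base composition, which differed between the sets, and no binding was measured.

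Large rises and falls were taken from called genes at 5 CPM or more in their higher group and without overlap between the groups. KRT8, a keratin of simple epithelia, read 7.17, 8.62 and 6.96 CPM in wild-type and 527, 486 and 501 in clone 1, 66.5-fold higher (log2 fold change 6.07, SE 0.0559; edgeR adjusted p = 5.78e-46). A2M, the protease inhibitor alpha-2-macroglobulin, went from 1.01, 0.9 and 1.31 to 75, 78.1 and 76.1 CPM, 71.3-fold. TNS4, a tensin of focal adhesions, rose from 0.252, 0.332 and 0.276 to 22.9, 23.2 and 21.6 CPM. That the groups of these 3 genes did not overlap was a condition of their choice.

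CD36, a fatty acid scavenger receptor, rose from 0.377, 0.332 and 0.448 to 24.9, 28.5 and 30.0 CPM, and FABP7, a fatty acid binding protein of neural progenitors, from 0.0571 to 5.73 ± 0.109 CPM. LAD1, an anchoring filament protein of basement membranes, had 1 read over the wild-type group and 6.75, 6.44 and 6.63 CPM in clone 1. CPED1, KLHDC8A and the phospholipase PLAAT3 rose to 25.1, 20.1 and 21.5 CPM from 0.41, 0.388 and 0.407. In the second clone CD36 stood at 3.29 CPM, A2M at 1.62 and PLAAT3 at 0.44.

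Among the large falls, ZNF618, a zinc finger gene, fell from 37.4, 35.3 and 34.3 CPM to 0.45, 0.391 and 0.247, 98.3-fold lower (log2 fold change -6.61, SE 0.134; edgeR adjusted p = 4.82e-34). Both collapsin response mediators on the list, which act in growth cone guidance, fell: DPYSL5 from 25.6, 22.9 and 24.8 to 0.4, 0.284 and 0.247 CPM and DPYSL3 from 36, 38.2 and 32.6 to 1.25, 1.03 and 0.782. NCAM1, the neural cell adhesion molecule, fell from 10.4, 12.9 and 10.1 to 0.3, 0.142 and 0.165 CPM. Lack of overlap between the groups was a condition of the choice for these 4 genes too.

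PDGFRA, a growth factor receptor of mesenchymal cells, fell from 8.6, 9.05 and 8.86 to 0.15, 0.0711 and 0.0412 CPM, 101-fold. NUP210, a nuclear pore protein, kept 2 reads over the clone 1 group against 5.79, 6.11 and 5.45 CPM in wild-type. VANGL2, a planar cell polarity protein, fell from 5.02 to 0.101 ± 0.097 CPM, ADD2, the beta subunit of the membrane skeleton protein adducin, from 6.19 to 0.101 ± 0.097, and LRRK1, a kinase, from 10.0 to 0.345 ± 0.0138. BEND4 fell from 15.2 to 0.621 ± 0.146 CPM. PDGFRA, NUP210 and VANGL2 were also near 0 in the second clone, at 0.0492, 0.0233 and 0.105 CPM, whereas ZNF618, DPYSL5, NCAM1 and LRRK1 stood there at 26.5, 41.7, 33.5 and 8.89.

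By difference in CPM, which favours long and abundant RNAs, the changes were of another kind. The chaperone HSP90AA1 fell from 4332, 4339.5 and 4509 to 3135, 3096 and 3165 CPM, and NPM1, a nucleolar histone chaperone, from 1658, 1705 and 1750.3 to 918, 886 and 913. NCL, which codes for nucleolin, fell from 2883 to 2208 CPM and the beta-tubulin TUBB from 2331 to 1616. Upward, the elongation factor EEF2 went from 4308 to 5287 CPM and SPARC, a secreted collagen-binding protein, from 187, 189 and 190.2 to 860.5, 812 and 820.4. TIMP1, an inhibitor of matrix metalloproteinases, rose from 748, 751 and 749 to 1243, 1182 and 1267 CPM. None of these groups overlapped, although the change of EEF2 was only 0.30 on the log2 scale (SE 0.0306).

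Some large changes fell in runs of genes next to each other by start position on a chromosome. Only tested genes at 1 CPM or more in either group were counted, so other genes can lie between them. With windows of 6 genes at 1 CPM or more in either group, at least 4 of them changed 4-fold or more in the same direction, 7 runs were found, 6 higher and 1 lower. Of 13899 such genes with a position, 3.35% were at least 4-fold higher and 1.25% at least 4-fold lower. The run with the highest median lay on the X chromosome from 151716035 to 152769747 and held cancer-testis genes, which are normally read in germ cells. There MAGEA3 went from 1.89, 1.28 and 1.86 to 84.6, 84.7 and 85.1 CPM, MAGEA12 from 0.671, 0.284 and 0.552 to 47.3, 48.2 and 45.6 and MAGEA6 from 0.923, 0.853 and 0.896 to 44.7, 44.5 and 47.2. CSAG1 rose from 0.168, 0.19 and 0.345 to 15.8, 16.2 and 15.6 CPM and the GABA-A receptor subunit gene GABRA3 from 0.168, 0.0948 and 0.138 to 6.35, 6.58 and 7.12.

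FATE1, MAGEA2B and MAGEA4 also rose in that run, to 7.73, 2.82 and 1.55 CPM, while GABRE, inside it, read 13.2, 13.5 and 11.2 CPM in wild-type and 11.7, 12.2 and 12 in clone 1 and was not called. So 8 of its 9 genes were at least 4-fold higher, with a median log2 fold change of 5.66. In the second clone the median of the same genes was -3.06, and MAGEA3, MAGEA12 and MAGEA6 stood at 0.204, 0.0323 and 0.0579 CPM. MAGEA and CSAG genes have near-identical copies, so how reads were divided among them is uncertain. PNMA5, on the same chromosome but outside the run, had 1 wild-type read and stood at 18.4, 19.4 and 18.4 CPM in clone 1.

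The other 5 upward runs had lower medians, 2.43 to 3.34, and in the second clone their medians were 0.93 to 3.33. On chromosome 19 the run from 6752160 to 7058640 held the methyl-CpG binding relatives MBD3L3, from 10.2, 10.6 and 10.3 to 90.4, 91.5 and 99.3 CPM, and MBD3L2, from 6.75, 5.73 and 7 to 43.5, 40.7 and 50.2, with the adhesion receptor ADGRE1, from 0.393 to 4.99 ± 0.756. VAV1, a guanine nucleotide exchange factor within that run, fell from 117 to 90.0 ± 2.41 CPM. The MBD3L copies cannot be told apart with certainty. On chromosome 22 the run from 37180167 to 37679806 held LGALS1, the lectin galectin-1, from 4.15, 4.69 and 4.93 to 60.0, 61.5 and 57.1 CPM, with CARD10, ELFN2, CDC42EP1 and C1QTNF6. On chromosome 2 the run from 241776825 to 241858908 held PDCD1, the checkpoint receptor PD-1, from 0.587, 0.237 and 0.276 to 8.75, 9.14 and 8.97 CPM, and the sialidase NEU4, from 0.755, 0.284 and 0.483 to 4.6, 5.76 and 7.08.

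Of both runs on chromosome 17, 1 was of a single gene family. From 68867292 to 69244846 the lipid transporters ABCA8, ABCA9, ABCA6 and ABCA10 all rose, ABCA8 from 4.49, 4.22 and 4.03 to 21.3, 23.2 and 21.3 CPM. From 35464249 to 35537861 the run was SLFN12L, from 4.11, 3.65 and 4.86 to 19.8, 21.7 and 19.8, with 4 pseudogenes and an intronic transcript. All of these lie within the span of SLFN12L, so this run, though counted above, is not a row of separate neighbours. The downward run, on chromosome 19 from 21804949 to 23945159, held 5 zinc finger genes and a pseudogene, IPO5P1, which fell from 5.19 to 1.91 ± 0.239 CPM. ZNF43 fell from 6.04, 7.11 and 7.34 to 1, 0.996 and 0.782 CPM, ZNF675 from 4.53, 5.12 and 5.21 to 0.5, 0.427 and 0.535, ZNF91 from 2.04 to 0.128 ± 0.112 and ZNF726 from 2.07 to 0.274 ± 0.168. ZNF724 fell by less, from 6.5 to 3.99 ± 0.343 CPM. The median of this run was -2.89, and -1.27 in the second clone.

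Gene lists were read by counts, beside a background in which 30.8% of tested genes were higher, 30.7% lower and the median log2 fold change was 0.01. Members that did not pass the filter on low counts are left out of each count, and a gene low in wild-type passed mainly where another group read it, so counts of rises among such genes are in part built in. The plot of all lists shows the shares. For list members given below the libraries of both groups never overlapped, except where a gene is said not to be called. The same held for 65.2% of all tested genes. Most of these members were picked as called ones with large changes, so the lack of overlap is largely built in. Of 42 epithelial and junction genes 26 were tested, of which 17 were higher and 4 lower, with a median of 1.61. With genes at 1 CPM or more in 3 libraries only, that median was 0.85. Besides KRT8, its partner keratin KRT18 rose from 106, 111 and 107 to 388, 361 and 385 CPM, and the 2 genes overlap on opposite strands.

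EPCAM, an epithelial adhesion molecule, rose from 0.755, 0.995 and 0.758 to 17.6, 18.4 and 20.2 CPM and the tight junction claudin CLDN4 from 0.713, 0.9 and 1.52 to 18.2, 17.5 and 22.6. PKP3, a desmosomal plakophilin, had 4 wild-type reads and stood at 3.2, 2.81 and 2.84 CPM. Other junction genes went the opposite way: CLDN1, a claudin, fell from 293, 278 and 305 to 82.3, 85.7 and 82.9 CPM, and DSP, the desmosomal plaque protein desmoplakin, from 3.1, 2.65 and 3.65 to 0.25, 0 and 0.0412. CDH3, the P-cadherin gene, was not called, at 1.89 and 1.75 CPM. The epithelial marker sum given above is itself made of genes such as KRT8, KRT18, EPCAM and CLDN4. It is therefore no separate reading, and the part of epithelial cells in the result was not tested.

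**Figure D3:**
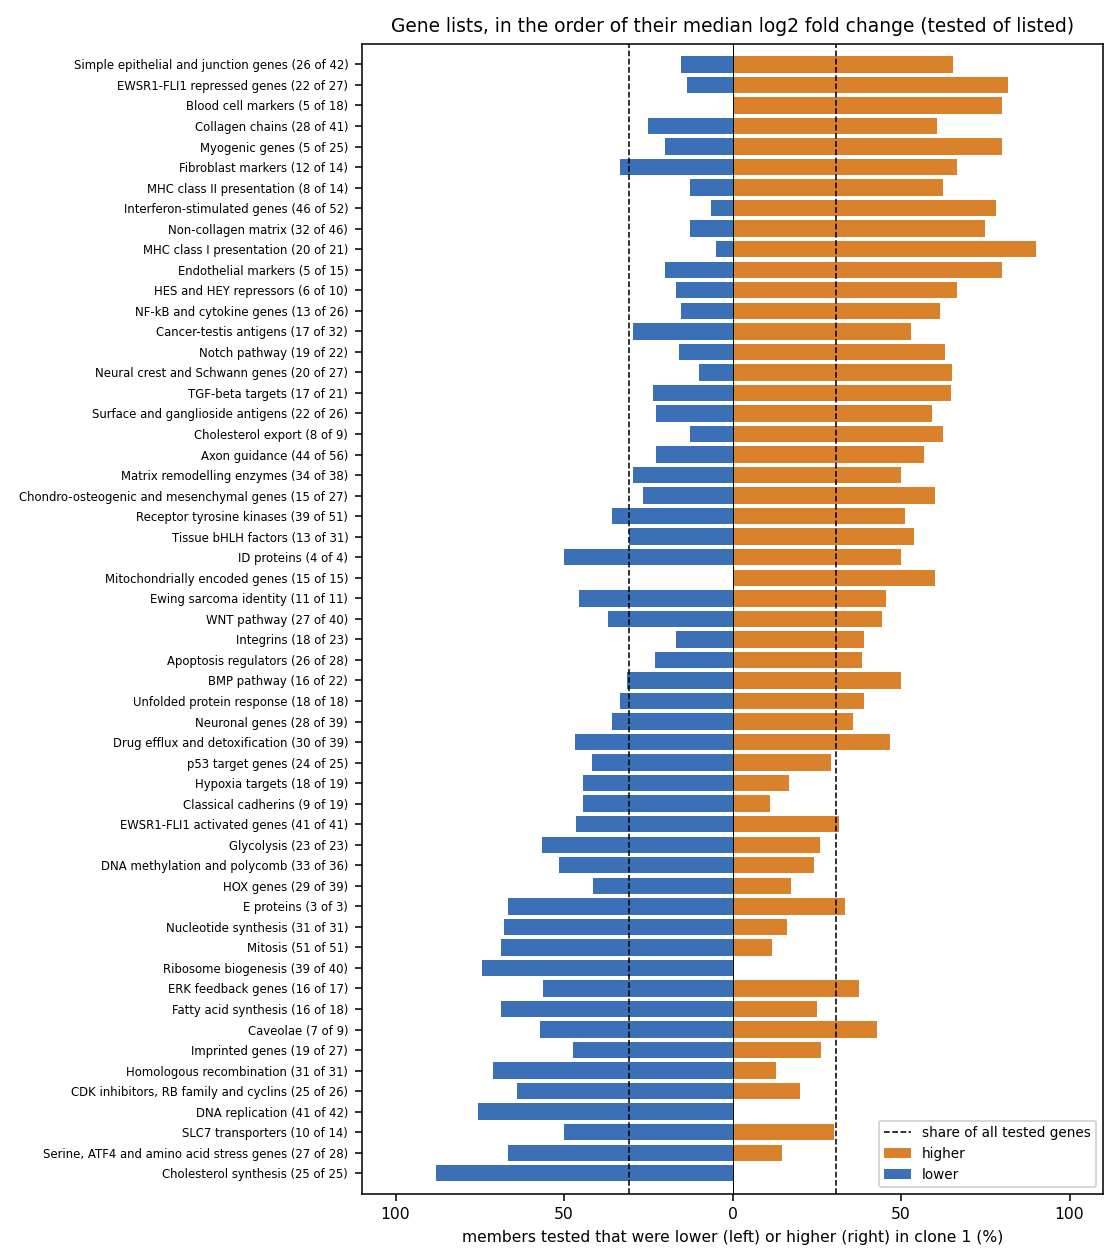
For each gene list, the percentage of its tested members that were higher (right, orange) or lower (left, blue) in clone 1 at adjusted p under 0.05, in the order of the list's median log2 fold change; labels give tested of listed members, and dashed lines the shares of all tested genes, 30.8% and 30.7%. Epithelial, fusion-repressed, collagen and antigen presentation genes stand near the top and cholesterol synthesis, ATF4 and replication genes near the bottom.

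Genes that EWSR1-FLI1 is known to repress were mostly higher: 18 of the 22 tested of 27 listed, with 3 lower and a median of 1.44. LGALS1 belongs to this list, and COL6A1 and COL6A3, chains of collagen VI, rose from 9.35, 8.86 and 8.89 to 63.4, 64.5 and 60.0 CPM and from 2.43, 2.51 and 3.31 to 30.3, 30.2 and 31.1. S100A4, a calcium-binding protein of motile cells, rose from 34, 32.2 and 37.6 to 136, 126 and 144 CPM and SPRY1, a feedback inhibitor of receptor tyrosine kinase signalling, from 0.797, 0.426 and 0.965 to 5.2, 5.62 and 4.98. IGFBP5, which binds insulin-like growth factors, went far the other way, from 16.7, 15.7 and 13.9 to 0.2, 0.249 and 0.123 CPM.

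Genes that the fusion activates did not share a direction: of 41 tested, 13 were higher and 19 lower, with a median of -0.10. BCL11B, a zinc finger factor, fell from 40.1, 42.5 and 44.4 to 16.6, 15.5 and 15.1 CPM, and EZH2, the histone H3 methyltransferase of polycomb complex 2, from 108, 107 and 111 to 56.3, 57.9 and 57.8. DKK2, a WNT modulator, rose from 142, 149 and 147 to 284, 279 and 292 CPM, and LIPI, a lipase, from 38.6, 41.5 and 41 to 57.2, 55.5 and 62. FLI1, whose 3′ exons are part of the fusion transcript, fell from 89.1, 90.4 and 90.7 to 62.8, 62.1 and 62.8 CPM. In gene counts the fusion cannot be separated from FLI1 itself.

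Matrix genes were mostly higher. Of 28 collagen chains tested of 41 listed, 17 were higher and 7 lower, with a median of 1.23. COL9A2, a chain of the cartilage collagen IX, rose from 7.72, 7.53 and 8.51 to 146, 139 and 143 CPM and COL3A1, a fibrillar chain, from 113, 113 and 109.8 to 295, 282 and 279.8. Another fibrillar chain, COL5A1, fell from 13.5, 14.4 and 12.3 to 3.7, 4.02 and 3.62 CPM, and COL4A5, of basement membranes, from 5.33, 5.69 and 5.72 to 1.65, 1.46 and 1.07.

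Of 32 other matrix genes tested of 46, 24 were higher and 4 lower (median 0.76). They included the small proteoglycan BGN, from 0.147 to 2.92 ± 0.0814 CPM, and FBLN1, a fibulin, went the other way, from 60.7, 62.9 and 58.5 to 27, 26.8 and 28.9. Matrix-modifying enzymes were higher in 17 of 34 tested and lower in 10. The collagen cross-linking enzyme LOXL2 rose from 5.83, 4.5 and 6.34 to 23, 22.8 and 19.7 CPM, while the metalloproteinase inhibitor TIMP2 fell from 8.3, 8.34 and 7.51 to 2.7, 2.7 and 2.59. Fibroblast markers were higher in 8 of 12 and lower in 4, PDGFRA among the latter. The fibroblast marker sum shares genes such as PDGFRA with this list and is no separate reading, and the part of fibroblasts in the matrix genes was not tested.

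Caveola genes changed in both directions. The coat gene CAVIN1 rose from 15.5, 16.7 and 14.6 to 62.6, 60.6 and 64 CPM and EHD2, an ATPase of the caveolar neck, from 3.82, 3.65 and 3.76 to 13.1, 11.5 and 13.7, beside CAVIN3 above. The caveolins fell, CAV1 from 1118, 1115 and 1131 to 888, 898 and 886 CPM and CAV2 from 163 to 134 ± 6.87, and so did PACSIN3 and CAVIN4. All 7 tested genes of this list were called, 3 higher and 4 lower.

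Receptor tyrosine kinases changed in both directions, 20 of 39 tested higher and 14 lower. AXL, the receptor for GAS6, rose from 0.839, 1.09 and 1.07 to 9.85, 11.5 and 11.4 CPM and ERBB4, for neuregulins, from 6.84, 6.97 and 7.1 to 16.4, 18.8 and 17.5. RET, for GDNF family ligands, fell from 3.77, 3.74 and 3.69 CPM to 1 read over the clone 1 group, beside the falls of PDGFRA and ROR2. PDGFRB rose from 96, 94.4 and 98.6 to 162, 152 and 165 CPM, opposite to PDGFRA. Of 16 ERK feedback genes 6 were higher and 9 lower, EGR1, an immediate early factor, from 26, 29.5 and 25.4 to 16.3, 15.6 and 16.9 CPM and SPRED2, an inhibitor of RAS signalling, from 61.2, 61.9 and 62.3 to 38.9, 38.1 and 38.

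Genes of cholesterol synthesis were lower and several export genes higher. Of 25 cholesterol synthesis genes all were tested, 22 were lower, 0 were higher, and the median was -0.55. PMVK, CYP51A1 and TM7SF2 were not called, and 0 members were higher at an unadjusted p under 0.05 or by DESeq2. SQLE, squalene epoxidase, fell from 872, 824 and 892 to 398, 389 and 395 CPM. Fatty acid synthesis genes were lower in 11 of 16 tested and higher in 4, with the desaturase FADS1 from 702, 681 and 718 to 462, 454 and 453 CPM. SREBF1, the factor that drives fatty acid synthesis genes, rose from 94.7, 98.5 and 90.6 to 168, 163 and 151 CPM. Of 8 cholesterol export genes tested 5 were higher and 1 lower: APOE, the apolipoprotein, rose from 13.6, 12.5 and 16.6 to 104, 93.8 and 107 CPM, the cholesterol efflux pump ABCA1 from 9.48, 9.19 and 9.45 to 38, 42.9 and 42.4, and NR1H3, the oxysterol receptor LXR alpha, from 4.15, 3.74 and 4.89 to 11.5, 11.1 and 12.8.

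Cell cycle genes were lower by modest amounts. Of 41 DNA replication genes tested 31 were lower and 0 higher, also 0 at an unadjusted p under 0.05 or by DESeq2 (median -0.28), with the helicase subunit MCM4 from 726, 716 and 725 to 513, 502 and 504 CPM and the clamp loader RFC3 from 136, 137 and 141 to 79.7, 83.4 and 83.3. Nucleotide synthesis genes were lower in 21 of 31 and higher in 5, and mitosis genes lower in 35 of 51 and higher in 6, with CCNA2, cyclin A, from 178, 171 and 175 to 121, 118 and 112 CPM. UBE2C, a mitotic ubiquitin-conjugating enzyme, rose from 124, 120.4 and 119 to 157, 164 and 150.0. Homologous recombination genes were lower in 22 of 31 and higher in 4. SLFN11, known for sensitising cells to DNA-damaging drugs, fell from 232, 243 and 239.6 to 167, 167 and 160.1 CPM, and MGMT, which removes alkyl groups from guanine, rose from 19.8, 20.4 and 20.6 to 35, 33.7 and 34.

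Among cyclins, CDK inhibitors and E2F factors 16 of 25 were lower and 5 higher. CDKN1A, the inhibitor p21, rose from 20.4, 24.6 and 22 to 56.3, 53.3 and 58.2 CPM. CDK6, a G1 kinase, fell from 2.26, 3.13 and 2.24 to 0.3, 0.356 and 0.288 CPM and CCND2, a D-type cyclin, from 1.3, 1.18 and 0.689 to 0, 0.0356 and 0, while E2F5 fell from 67.2, 67.3 and 72.7 to 29.7, 30.7 and 33.4. Among p53 targets, which include CDKN1A, 7 of 24 were higher and 10 lower. BBC3, the pro-apoptotic PUMA, rose from 0.839, 0.948 and 0.483 to 2.35, 2.17 and 2.02 CPM, and PMAIP1, the pro-apoptotic NOXA, fell from 28.9, 29.8 and 29.8 to 14.1, 14.8 and 14.9.

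Ribosome biogenesis genes were lower in 29 of 39 tested and higher in 0, by the unadjusted p and DESeq2 as well (median -0.21), NOP16 from 66, 62.3 and 62.8 to 41.2, 40.6 and 39.7 CPM among them. Serine synthesis, ATF4 target and amino acid stress genes were lower in 18 of 27 and higher in 4 (median -0.37). ALDH1L2, a mitochondrial folate enzyme, fell from 76.1, 75.3 and 75.6 to 20.6, 20.2 and 17.3 CPM and SLC7A11, the cystine transporter, from 44.6, 47.6 and 45.9 to 19, 22.3 and 19.1. Glycolysis genes were lower in 13 of 23 and higher in 6, with the lactate exporter SLC16A3 up from 1.72, 2.18 and 1.9 to 29.2, 25.2 and 27.4 CPM.

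Interferon-stimulated genes were higher in 36 of 46 tested of 52 listed, with 3 lower and a median of 0.90. BST2, the antiviral tether tetherin, rose from 0.0839, 0.19 and 0.138 to 5.1, 6.68 and 5.56 CPM, OASL, an oligoadenylate synthetase relative, from 0.671, 0.474 and 0.827 to 6.9, 6.04 and 5.6, and LGALS3BP, a secreted glycoprotein, from 311, 346 and 306 to 679, 670.5 and 642. HERC5, the ligase that attaches ISG15, fell from 9.94, 7.82 and 8.76 to 0.45, 0.747 and 0.494 CPM. Of 20 MHC class I presentation genes tested 18 were higher and 1 lower, with a median of 0.73. HLA-E rose from 106, 107 and 108 to 256, 247 and 256 CPM and NLRC5, the activator of class I genes, from 0.377, 0.19 and 0.414 to 4, 4.05 and 3.29. HLA genes share near-identical sequence and are uncertain.

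Of 8 MHC class II genes tested 5 were higher and 1 lower, and of 13 NF-kB and cytokine genes 8 were higher and 2, NFKBIA and CXCL12, lower, with ICAM1, a leukocyte adhesion ligand, from 0.923, 1.18 and 0.965 to 10.0, 9.81 and 9.34 CPM and the NF-kB subunit RELB up from 0.965, 1.33 and 1 to 4.8, 5.01 and 4.07. Of 18 blood cell markers 5 were tested, 4 of them higher and 0 lower, also 0 at an unadjusted p under 0.05 or by DESeq2. CORO1A, an actin regulator of leukocytes, rose from 1.85, 2.32 and 2.41 to 18.9, 17 and 17.6 CPM and HCLS1, a leukocyte cortactin relative, from 6.25, 5.97 and 5.41 to 32.4, 33.5 and 31.8. CD79A, of the B cell receptor, was not called, at 6.18 and 6.69 CPM, and PTPRC and LYZ were too low to be tested. The leukocyte marker sum holds CORO1A, HCLS1, CD79A, PTPRC and LYZ as well, so it is no separate reading. The part of leukocytes in these genes was not tested.

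Of 19 Notch pathway genes tested 12 were higher and 3 lower (median 0.50). NOTCH1 rose from 16.4, 15.7 and 15.1 to 30.2, 34.3 and 33.7 CPM, its ligand JAG2 from 17.4, 15 and 16.2 to 32.8, 30.2 and 33.5, and the feedback gene NRARP from 10.6, 10.9 and 11.4 to 29.8, 28.5 and 30.3. Among the repressors that Notch induces, which are themselves helix-loop-helix proteins, HEY1 rose from 12.3, 12.9 and 12.2 to 38.7, 38.4 and 42.1 CPM and HEYL from 12.6, 12.3 and 12.2 to 24.5, 22.2 and 23, while HES1 fell slightly, from 49.1, 50.8 and 48.4 to 44.2, 43.9 and 46.1.

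WNT pathway genes were higher in 12 of 27 and lower in 10: the WNT deacylase NOTUM rose from 0.629, 0.332 and 0.414 to 5.2, 4.98 and 5.76 CPM, and LGR5, an R-spondin receptor, fell from 4.57, 4.88 and 5.52 to 0.95, 0.889 and 1.93. Of 16 BMP genes 8 were higher and 5 lower. ENG, the co-receptor endoglin, rose from 14.9, 16.4 and 13.7 to 104, 103 and 107 CPM, and the ligand BMP2 fell from 8.89, 7.16 and 7.72 to 1.6, 2.03 and 1.73. TGF-beta targets were higher in 11 of 17 and lower in 4, with SNAI1, a repressor of E-cadherin, from 2.94, 2.75 and 3.27 to 11.8, 13.1 and 12.3 CPM, and PMEPA1, a feedback inhibitor, down from 3.1, 3.22 and 3.1 to 0.1, 0.0356 and 0.165.

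The partners of ID2 changed by little. Of the E proteins, TCF12 fell from 436, 414 and 450.2 to 339.9, 337 and 355 CPM and TCF3 from 259, 250.1 and 251 to 235, 227 and 231, and TCF4 rose from 180.2, 177 and 188 to 193, 200.0 and 199. ID1 rose from 42.9, 43.6 and 43.4 to 62.3, 57 and 62.6 CPM, ID4 from 37.1, 38.1 and 39.6 to 51.9, 56.9 and 56.6, and ID3 fell from 182, 202 and 185 to 171, 158 and 163. Of 13 tissue-specific helix-loop-helix factors tested, of 31 listed, 7 were higher and 4 lower. BHLHE41, a circadian repressor, rose from 13.4, 13.4 and 12.7 to 20.3, 26.2 and 25.6 CPM, and BHLHE22, a neuronal repressor, fell from 24.8, 22.8 and 25 to 11.1, 11.8 and 11.2.

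Among neuronal genes, 10 of 28 tested were higher and 10 lower. SYT1, the synaptic vesicle calcium sensor, rose from 216, 208 and 224 to 401, 389 and 413 CPM and the calcium channel gene CACNA1A from 0.252, 0.237 and 0.276 to 4.45, 4.87 and 5.06, while INA, the intermediate filament internexin, fell from 8.39, 4.69 and 6.96 to 1.8, 1.6 and 1.65. Neural crest and Schwann cell genes were higher in 13 of 20 and lower in 2, with NGFR, the p75 neurotrophin receptor, from 62.1, 67.2 and 64.2 to 159, 157 and 151 CPM. Axon guidance genes were higher in 25 of 44 and lower in 10. SEMA6B, a semaphorin, rose from 1.01, 0.711 and 0.862 to 6.15, 7.29 and 6.54 CPM and NEO1, the netrin receptor neogenin, fell from 66.5, 67.1 and 60.0 to 26.3, 25.7 and 25.2.

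Cancer-testis, imprinted and HOX genes held single large changes in both directions. Of 17 cancer-testis antigens tested 9 were higher, among them those of the X chromosome run, and 5 lower, such as PIWIL2, a germline piRNA protein, from 3.4, 3.32 and 4.03 to 0.25, 0.427 and 0.453 CPM. Imprinted genes were higher in 5 of 19 and lower in 9: the non-coding H19 rose from 0.336, 0.0474 and 0.31 to 7.5, 6.22 and 6.75 CPM and the Notch-like DLK1 from 0.629, 0.379 and 0.414 to 8.85, 8.46 and 7.74, and PLAGL1, a zinc finger factor, fell from 105, 109 and 108 to 43.2, 46.4 and 46.6. Of 29 HOX genes 5 were higher and 12 lower. HOXA10 fell from 4.82, 4.88 and 4.34 to 0.1, 0.213 and 0.659 CPM and HOXA11 from 0.881, 1.09 and 1.34 to 0, 0.0356 and 0.0412, whereas HOXB4 rose from 11, 9.05 and 9.72 to 18.6, 21.4 and 21.2. DNA methylation and polycomb genes were lower in 17 of 33 and higher in 8, EZH2 with the largest fall.

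Genes before ID2 on chromosome 2 were mostly lower, in a region chosen after the values were seen and given without a test of the region. From the end of chromosome 2 to ID2, 11 of 12 protein coding genes were lower and 0 higher (0 also at an unadjusted p under 0.05 or by DESeq2), with a median of -0.53. Of all tested genes 30.7% were lower and 30.8% higher, beside which the counts here and beyond ID2 stand. SOX11, a factor of neural progenitors 2.99 Mb before ID2, fell from 41, 45 and 41.8 to 1.05, 0.996 and 0.864 CPM, and RNF144A, a ubiquitin ligase 1.76 Mb before it, from 11.9, 11.8 and 10.9 to 0.55, 0.356 and 0.37. PXDN, a matrix peroxidase, fell from 135, 143 and 134 to 54.8, 53.9 and 54 CPM, and the interferon-induced kinase gene CMPK2 from 2.52, 2.75 and 2.79 to 0.95, 0.711 and 0.988. SH3YL1, at the chromosome end, was not called, at 12.5, 13.4 and 15 CPM in wild-type and 12.3, 14.2 and 14.6 in clone 1.

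On the other side of ID2, 12 of 22 genes within 4 Mb were lower and 8 higher, with a median of -0.27. RRM2, a ribonucleotide reductase subunit, fell from 473, 465 and 472 to 251, 249 and 238 CPM, ODC1, the first enzyme of polyamine synthesis, from 433, 447 and 434 to 249, 242 and 233, and LPIN1, a phosphatidate phosphatase, from 32.4, 31.1 and 31.6 to 14, 15.9 and 15.7. MBOAT2, a lipid acyltransferase, rose from 31.5, 31.3 and 32.5 to 56.1, 56.2 and 55.2 CPM. From 4 to 21 Mb beyond ID2, 17 of 82 genes were lower and 44 higher, with a median of 0.15, and DPYSL5 lay in that stretch.

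In the second clone the stretch before ID2 had a median of -0.98, with 10 genes lower, and the 4 Mb beyond it a median of 0.28, with 1 lower and 15 higher. Between the clones, 11 of 12 genes before ID2 and 19 of 22 in those 4 Mb differed in the test of that contrast. It called 62.2% of all genes. Both comparisons share the wild-type libraries.

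**Figure D4:**
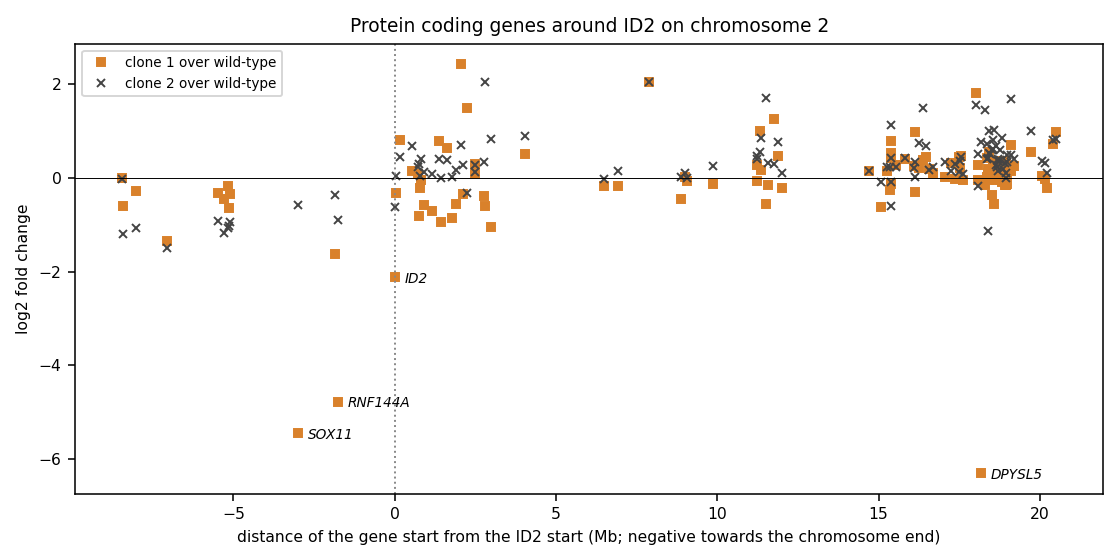
Log2 fold change over wild-type of protein coding genes against the distance of their start from the ID2 start in Mb, squares for clone 1 and crosses for clone 2. Left of the dotted line at ID2 all but 1 of the squares lie below 0, with SOX11 and RNF144A lowest, and right of it many squares lie below the crosses within the first 4 Mb.

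Whole chromosomes differed in their medians, over genes at 1 CPM or more. The median log2 fold change was -0.37 on chromosome 18, -0.30 on chromosome 13, -0.22 on chromosome 6 and -0.20 on chromosome 8. It was 0.20 on chromosome 19 and 0.16 on chromosome 20, and the other chromosomes lay between -0.11 and 0.10. On chromosome 18, 83.2% of genes had a log2 fold change below 0, called or not, against 50.1% on chromosome 1. Medians of single clone 1 libraries, each over the wild-type mean, ran from -0.36 to 0.21. A wild-type library over the mean of the others gave -0.03 to 0.04. Medians of the clone 1 libraries lay outside that range on every chromosome except 1, 7, 9, 10, 11, 12 and X. On some, such as chromosome 17 at 0.043 to 0.048, they did so by little. In the second clone the median was -0.37 on chromosome 18 and 0.09 on chromosome 13, and on chromosome 11 it was -0.61 against -0.01 in clone 1.

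In bins of 10 Mb with at least 15 such genes, 22 of 277 had a median below -0.3 and 3 above 0.3. The 3 bins of chromosome 5 beyond 160 Mb had medians of -0.60, -0.42 and -0.54, against 0.44 between 140 and 150 Mb, which was 0.42 without the protocadherin genes. NPM1, given above, lies beyond 160 Mb on chromosome 5, and SPARC, between 150 and 160 Mb, rose. Copy number was not measured, and its part in these medians and in the gene groups was not tested.

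**Figure D5:**
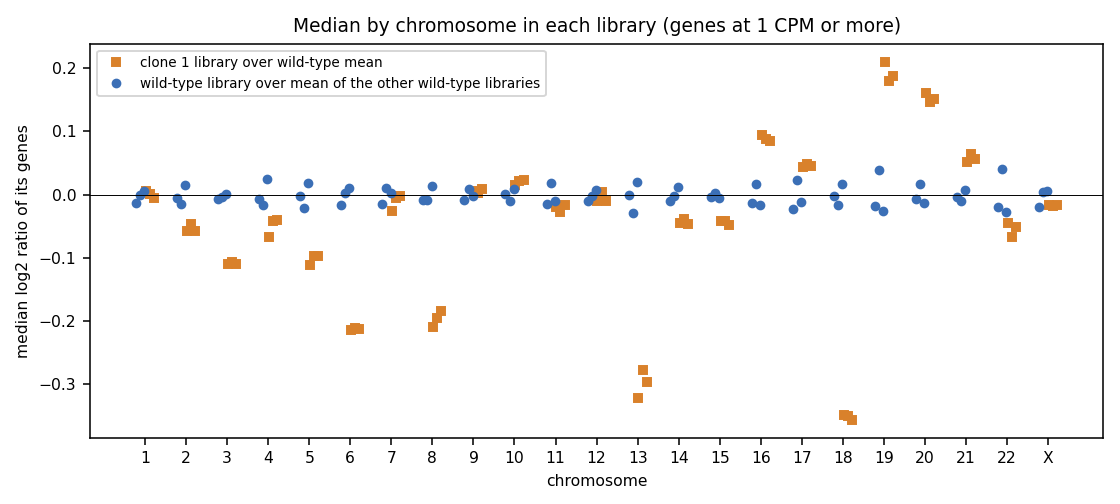
Median log2 ratio of the genes of each chromosome at 1 CPM or more, squares for each clone 1 library over the wild-type mean and circles for each wild-type library over the mean of the other wild-type libraries. The circles stay between -0.03 and 0.04, while the squares reach -0.36 on chromosome 18 and 0.21 on chromosome 19, with the 3 libraries close together.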

How the data were processed

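Gene counts of 12 libraries were deposited as 1 table of whole-number counts with no normalization. Per the submitters' processing notes, FastQC, STAR and the hg38 build were used; counter, annotation and strand setting: not given in the sources used here. Of 384 named genes, 125 overlap another gene of the table, and near-identical copies (MAGEA, CSAG, MBD3L, HLA, protocadherins) are uncertain. Groups followed the sample titles.

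The counts of all 12 libraries were fitted in 1 model with edgeR 4.0.16 (R 4.3.3): TMM scaling, filterByExpr with a minimum count of 10, quasi-likelihood test with 8 residual degrees of freedom, and Benjamini-Hochberg adjustment over 17084 genes at 0.05. Clone 1 against wild-type was the contrast of interest, and clone 1 against clone 2 was tested in the same fit. Values per library are CPM, with mean ± SD over 3 libraries. Totals of the 12 libraries were 19420408 to 29748084 counts, with a common biological coefficient of variation of 2.95%. Counting intervals and the floor of 3 reads over a group cover counting error only. The procedure was tested on simulated data.

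Genes named are ID2; the 15 called rises and 15 falls largest in log2 fold change, protein coding, with 5 CPM or more in the higher group and no overlap of groups; the 8 largest differences in CPM each way; up to 8 genes each way without a read in the other group; up to 5 called members of each list in its larger direction and 2 in its smaller; every member of short lists; and the 5 largest differences between clones each way. KRT18, CLDN4, CTLA4 and other genes read in only 1 group beyond those 8, the genes of runs, of the ID2 region and of marker checks, and uncalled examples were named after their values were seen. Members and lists were chosen with earlier results of these data known. Alternatives were other scalings, filters, tests (DESeq2 1.42.0, limma-voom in limma 3.58.1), the 6 libraries alone, a replicate block, and each library left out. Some genes that the rule names are not reported here.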

Additional observations from a re-analysis of the deposited data

Results flagged for a closer look

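Among the genes named by rule, 20 genes changed at least 2-fold in opposite directions in the 2 knockout clones. They were picked for that pattern, and some of the named genes for the difference between clones itself. That difference, tested as a contrast in the same edgeR fit, passed the Benjamini-Hochberg threshold in each, which the choice largely built in. That contrast called 62.2% of all tested genes, and the clones share the wild-type libraries. Over all 17084 tested genes, 1726 were called against wild-type in both clones in opposite directions, at any fold. Each value is the log2 fold change of clone 1 minus that of clone 2, with both in brackets, clone 1 first; where a group has few or no reads, as GPR27 in clone 1, the fitted value depends on the prior count.

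In 8 of them clone 1 was lower and clone 2 higher. The difference was -11.96 for GABRA5 (-6.31 and 5.65), a GABA-A receptor subunit, with an adjusted p of 8.86e-43 by edgeR. It was -10.76 for GPR27 (-6.71 and 4.04), an orphan receptor, and -10.29 for RAB3C (-4.48 and 5.81), a synaptic vesicle GTPase. It was -8.74 for SLC7A2 (-7.45 and 1.29), an arginine transporter, and -7.40 for NCAM1 (-5.80 and 1.6), the neural cell adhesion molecule. Smaller differences were -5.43 for CDK6 (-2.96 and 2.47), a G1 kinase, -5.36 for ABCB1 (-3.86 and 1.5), the drug efflux pump P-glycoprotein, and -3.15 for COL5A1 (-1.81 and 1.34), a fibrillar collagen chain.

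In the other 12 clone 1 was higher and clone 2 lower. In the X chromosome run the difference was 10.45 for MAGEA12 (6.5 and -3.95), 10.37 for GABRA3 (5.58 and -4.79), 9.68 for CSAG1 (6 and -3.68) and 8.69 for MAGEA3 (5.63 and -3.06), with an adjusted p of 4.95e-40 by edgeR for MAGEA3. It was 9.69 for MCTP2 (2.25 and -7.45), a calcium-binding membrane protein, 9.27 for SLC7A3 (1.81 and -7.46), another arginine transporter, and 9.18 for PKP3 (5.64 and -3.54), a desmosomal protein. For signalling and matrix genes it was 4.77 for MMP2 (1.41 and -3.36), a gelatinase, 3.70 for BMP5 (1.06 and -2.64), a BMP ligand, 3.46 for CD40 (2.10 and -1.36), a TNF receptor family member, 3.09 for SEMA3G (2.05 and -1.04), a semaphorin, and 2.87 for EHD2 (1.76 and -1.11), a caveolar ATPase. The arginine transporters SLC7A2 and SLC7A3 thus differed between clones in opposite directions.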

How the results depend on the processing

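Across 14 alternatives, 4727 to 5435 genes were called higher and 4861 to 5556 lower, against 5265 and 5248. Leaving out each library in turn gave 4778 to 5256 and 4861 to 5118, and 48.1% to 51.2% of calls were upward in all settings. At 2-fold or more, 1152 to 2106 genes were higher and 523 to 828 lower. Of 383 named genes, 0 reversed, and 6 lost their call in at least 1 setting (MESP1, BHLHE40, HES1, MEF2C, CLDN5 and NKX2-2). Replicate numbers did not pair the groups: same-numbered libraries had correlations of -0.04, 0.03 and 0.03, and the replicate block, on the 6 libraries, gave 5263 higher and 5146 lower, against 5250 and 5113 without it. With genes at 5 CPM or more, chromosome medians were -0.26 on 6, -0.22 on 8, -0.35 on 13, -0.38 on 18 and 0.15 on 20; the cause was not tested. With 1 CPM or more in 3 libraries, list medians went from 0.53 to 0.19 for cancer-testis and from 0.58 to 0.36 for NF-kB genes. Depth limits statements on genes with few reads, where zeros allow up to 3 reads over a group.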
